A study of Mus musculus with 10 samples.

Results

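The genes of TGF-beta and BMP signalling examined here are 41 ligands, receptors, SMADs, Id genes, latent TGF-beta binding proteins and antagonists, chosen by name. All 41 were measured, each by 1 probe set that carries that gene symbol alone, out of 19935 genes measured in this way, and all 41 were among the 15815 genes tested. Expression was measured on 10 arrays of epithelial cells sorted from mammary glands of virgin female mice aged 8 to 12 weeks. There were 3 arrays of basal cells from Pygo2 SSKO mice, 3 of mature luminal cells from control mice and 4 of basal cells from control mice. What SSKO stands for, the Cre line or promoter behind it and the alleles of the controls are not given in the labels; in the title of the series the mutant cells are named Pygo2-null. SSKO and control mice were littermates housed together. Basal cells, called MaSC or MaSC/basal in the labels, were sorted as CD29-high and CD24-positive cells, a gate that holds stem cells and myoepithelial cells together. Luminal cells were sorted as CD29-low, CD24-positive and CD61-negative. Cells stained for CD31, CD45 or TER119, marks of endothelial, immune and red blood cells, were gated out of both. Samples are labelled as biological replicates, and the number of animals behind each one is not stated. A p-value therefore reflects the spread of these arrays, and their number limits the precision.

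Ligands of this family bind pairs of type I and type II receptor kinases on the cell surface. TGF-beta and activin receptors then phosphorylate Smad2 and Smad3, and BMP receptors phosphorylate Smad1, Smad5 and Smad9. The activated SMADs join Smad4 and act on target genes in the nucleus, among them the Id genes and the feedback inhibitors Smad6 and Smad7. Latent TGF-beta binding proteins anchor stored ligand in the matrix, and secreted antagonists such as follistatin, noggin, gremlin and chordin hold ligands away from their receptors. In the mammary gland TGF-beta is known as a restraint on ductal growth and branching.

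Values are log2(intensity + 16), and differences and folds are given on this scale, so those of dim genes are understated. A gene was called when limma's two-sided test, fitted to all 10 arrays and adjusted by Benjamini-Hochberg over the 15815 genes, gave an adjusted p under 0.05. The targeted gene, Pygo2, averaged 6.26 in SSKO basal cells and 8.60 in control basal cells and was lower in SSKO cells by -2.34 (SE 0.32, limma adjusted p = 0.0441). That call was lost in 9 of the 18 alternative fits that could test Pygo2. Over all 18 of these fits the difference lay between -2.70 and -1.79 and the limma adjusted p between 0.0243 and 0.363. Where the Pygo2 probe set lies relative to the deletion is not known. The 10 basal markers were called lower in luminal cells in 10 of 10 cases, and the 8 mature luminal markers measured were called higher in 8 of 8. Luminal progenitor markers were brighter in sum on the luminal arrays, at 4978 to 9024 there and 1282 to 1781 on the control basal arrays. Of the 6, 4 were called higher and 1 lower. The lower one was Itgb3, the gene of CD61, with 6.37, 6.96 and 6.94 on the luminal arrays and 8.59 to 9.65 on the control basal arrays. These values compare luminal with basal cells only, so they do not show how many progenitors the luminal samples held. Luminal array 3 stood apart from the other luminal arrays. The summed intensity of the 10 basal markers was 12408 on luminal array 3, against 2853 and 1936 on luminal arrays 1 and 2, and lay between 68073 and 73120 on the SSKO basal arrays and between 68322 and 73685 on the control basal arrays. Values without luminal array 3 are given below for the genes with the widest luminal differences and for those whose call it changed.

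Promoter sequence is shown for 5 genes called between luminal and basal cells, 2 of them higher in luminal cells (Inhbb and Bmpr1b) and 3 lower (Id3, Ltbp2 and Tgfbr1), so that genes of opposite direction can be read side by side. RefSeq promoter windows on GRCm38.p6 were matched by symbol for 29 of the 41 genes, with 37 windows in all, since some genes have several starts. The 250 bases before the annotated start are printed 5′ to 3′, with one of 3 windows for Bmpr1b and one of 2 for Tgfbr1. Capitals mark GGCGCC, a GC-rich element bound by SMAD complexes of the BMP branch, and CAGAC or its reverse complement GTCTG, which contain the short SMAD box.
Inhbb promoter, chr1:119422249-119422498, minus strand: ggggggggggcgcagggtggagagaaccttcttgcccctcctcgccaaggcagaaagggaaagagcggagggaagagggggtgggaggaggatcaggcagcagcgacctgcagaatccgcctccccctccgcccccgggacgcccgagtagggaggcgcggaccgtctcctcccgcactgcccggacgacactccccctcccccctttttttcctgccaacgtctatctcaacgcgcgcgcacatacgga
Bmpr1b promoter, chr3:141982265-141982514, minus strand: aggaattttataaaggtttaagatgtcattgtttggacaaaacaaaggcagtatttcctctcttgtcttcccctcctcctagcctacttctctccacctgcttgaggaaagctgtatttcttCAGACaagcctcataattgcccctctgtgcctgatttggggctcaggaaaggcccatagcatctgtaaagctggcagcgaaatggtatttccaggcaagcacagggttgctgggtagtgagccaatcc
Id3 promoter, chr4:136143572-136143821, plus strand: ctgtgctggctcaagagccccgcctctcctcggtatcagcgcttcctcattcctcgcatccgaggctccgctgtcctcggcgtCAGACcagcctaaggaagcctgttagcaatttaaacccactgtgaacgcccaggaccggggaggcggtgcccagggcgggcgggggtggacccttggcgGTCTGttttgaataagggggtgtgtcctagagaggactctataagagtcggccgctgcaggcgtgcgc
Ltbp2 promoter, chr12:84876492-84876741, minus strand: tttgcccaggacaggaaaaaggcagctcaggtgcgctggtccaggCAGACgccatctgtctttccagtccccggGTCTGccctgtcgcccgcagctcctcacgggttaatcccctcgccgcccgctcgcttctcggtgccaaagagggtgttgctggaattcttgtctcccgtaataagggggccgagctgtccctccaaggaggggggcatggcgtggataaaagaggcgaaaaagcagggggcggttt
Tgfbr1 promoter, chr4:47352972-47353221, plus strand: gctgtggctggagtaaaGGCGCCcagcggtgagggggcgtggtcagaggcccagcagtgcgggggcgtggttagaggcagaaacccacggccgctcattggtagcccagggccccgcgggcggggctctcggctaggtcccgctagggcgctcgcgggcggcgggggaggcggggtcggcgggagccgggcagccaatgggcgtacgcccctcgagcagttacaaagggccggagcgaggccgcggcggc
Both strands were searched; GGCGCC reads the same on either, and the motifs can share at most an end base. GGCGCC occurred in 10 of the 37 windows of the 41 genes (27.0%), against 9.59% of all 32851 windows, and CAGAC in 16 of 37 (43.2%), against 42.2% of all windows. Split by call in luminal cells, GGCGCC stood in 0 of 5 windows of genes that were higher, in 4 of 15 windows of genes that were lower and in 6 of 17 windows of genes that were not called. CAGAC stood in 2 of 5, 6 of 15 and 8 of 17 windows of the same groups. Windows of a gene can overlap, as for Ltbp4, where 1 GGCGCC is counted in 2 windows. Counted by gene, GGCGCC stood near 0 of 3 higher genes, 3 of 12 lower genes and 6 of 14 genes not called. Bmp3, Fst, Bmp7, Tgfbr3 and Id1 were among the 12 genes with no window used here. In the printed windows, Id3 and Ltbp2 hold CAGAC or GTCTG at 2 places each, Bmpr1b at 1, Tgfbr1 holds GGCGCC once, and Inhbb holds neither. The windows compared were not matched for their content of G and C, so these shares do not show enrichment of the motif as such. These are counts of letters in short windows, not sites shown to bind SMADs.

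The comparison of luminal with basal cells of control mice asked how the pathway differs between the epithelial layers. Of the 41 genes, 18 were lower and 4 higher in luminal cells, or 53.7% of the 41, where 44.3% of all genes tested were called. The lower genes make up 43.9% of the 41, where 19.7% of all genes tested were called lower, and the higher genes 9.76%, where 24.6% of all genes were called higher. The median difference of the 41 was -0.39, beside 0.07 over all genes tested. The genes with the largest falls were the antagonist Fst, the co-receptor Tgfbr3, the matrix protein gene Ltbp2, the ligand Bmp7 and Ltbp4, and those with the largest rises were the receptor Bmpr1b, the ligand Bmp3 and Inhbb. In bulk samples, fewer cells of a type and less RNA per cell cannot be told apart. All 22 calls held in each of the 19 alternative fits. Of these fits, the other filters and the mean over probe sets leave the log2 values of these 22 genes unchanged. Without luminal array 3 the differences were -5.29 for Fst, -4.26 for Ltbp2, -3.91 for Ltbp4, -2.16 for Tgfb2, -1.38 for Smad1, 4.58 for Bmpr1b, 3.94 for Bmp3 and 3.11 for Inhbb.

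**Figure D1:**
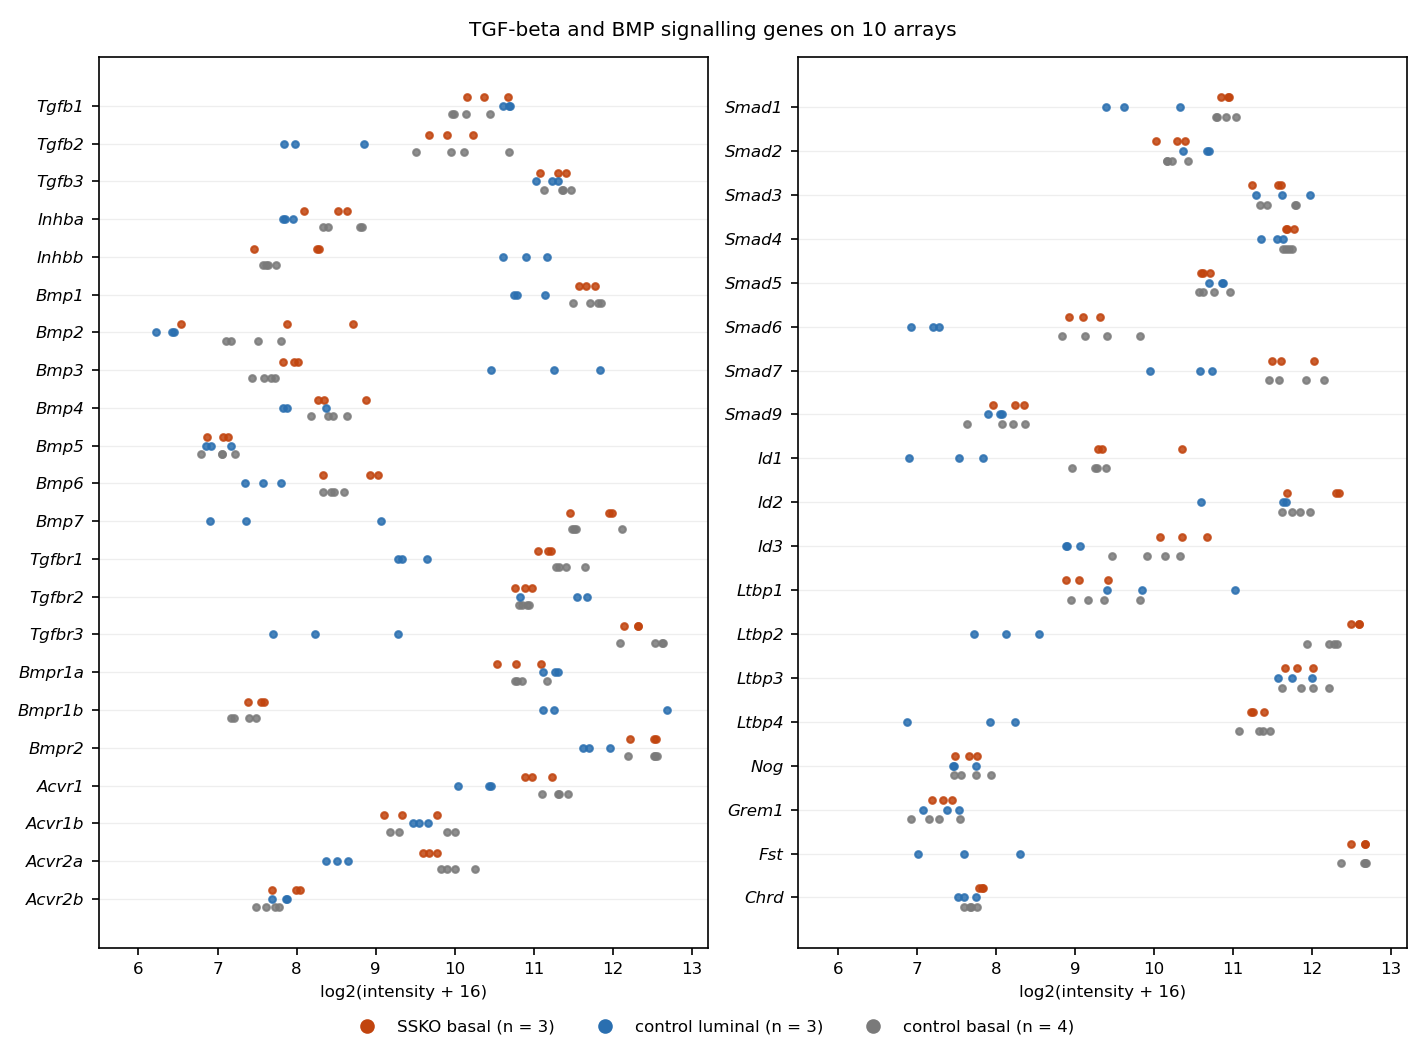
Level of each of the 41 genes as log2(intensity + 16) on the horizontal axis, with 1 point per array for 3 SSKO basal, 3 control luminal and 4 control basal arrays, set one below the other in each gene's row. Luminal points for Fst, Tgfbr3, Ltbp2, Ltbp4 and Bmp7 lie far left of the basal points, those for Bmpr1b, Bmp3 and Inhbb far right, and SSKO points mostly lie among the control basal points.

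Among the TGF-beta and activin ligands, luminal cells had less Tgfb2, more Tgfb1 and much more Inhbb, while Tgfb3 was not called. Inhbb encodes the beta B subunit shared by activin B and inhibin B. It had log2 values of 10.91, 10.61 and 11.16 on the luminal arrays, against 7.64, 7.74, 7.58 and 7.61 on the control basal arrays. All luminal arrays lay above all basal arrays, and the difference was 3.25 (SE 0.20, limma adjusted p = 2.96e-07), or 9.51-fold. Inhba, which encodes the beta A subunit, went the other way, with a mean of 7.88 ± 0.07 (SD, n = 3) in luminal and 8.59 ± 0.26 (SD, n = 4) in control basal cells, and was lower by -0.71 (SE 0.17, limma adjusted p = 0.00526). Tgfb2 had values of 7.84, 7.98 and 8.85 on the luminal arrays, against 9.95, 10.11, 9.51 and 10.68 on the control basal arrays. It was 3.59-fold lower in luminal cells, with a difference of -1.84 (SE 0.29, limma adjusted p = 3.78e-04) and luminal array 3 closest to the basal range. Tgfb1 was higher in luminal cells by 0.54 (SE 0.15, limma adjusted p = 0.0147), at 10.61, 10.70 and 10.69, against 9.96, 9.99, 10.14 and 10.44 on the control basal arrays, with a narrow gap between the groups. Tgfb3 averaged 11.19 ± 0.14 (SD, n = 3) in luminal and 11.33 ± 0.15 (SD, n = 4) in control basal cells, and its 95% interval ran from -0.43 to 0.15.

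Of the 7 genes with a BMP name, luminal cells had more Bmp3 and less Bmp7, Bmp6 and Bmp1. Bmp3, a ligand known to oppose other BMPs, had values of 11.26, 11.84 and 10.46 on the luminal arrays, against 7.59, 7.68, 7.73 and 7.44 on the control basal arrays. The groups were far apart, with a difference of 3.58 (SE 0.25, limma adjusted p = 7.15e-07), or 11.9-fold. Bmp7, a ligand of the BMP branch, had values of 6.90, 7.36 and 9.07 on the luminal arrays, against 12.11, 11.51, 11.54 and 11.49 on the control basal arrays. It was 14.8-fold lower in luminal cells, by -3.88 (SE 0.41, limma adjusted p = 1.85e-05), and luminal array 3 stood well above the other luminal arrays. Without that array the difference was -4.53 (SE 0.23, limma adjusted p = 2.03e-07). Bmp6 had values of 7.80, 7.35 and 7.58 on the luminal arrays, against 8.60, 8.48, 8.34 and 8.44 on the control basal arrays, and was lower by -0.89 (SE 0.18, limma adjusted p = 0.00157). Bmp1, which despite its name encodes a metalloproteinase that processes collagen and the BMP antagonist chordin, was lower by -0.82 (SE 0.14, limma adjusted p = 5.09e-04). Bmp2 was lower on every luminal array than on any control basal array, but its difference of -1.04 (SE 0.39, limma adjusted p = 0.0530) was not called. It was called lower in 2 of 18 alternative fits. These were the fit to luminal and control basal arrays by themselves (-1.04, limma adjusted p = 0.00175) and that with a pseudocount of 1 (-1.19, limma adjusted p = 0.0449). The luminal mean of Bmp2, 6.36, was the only group mean of the 41 genes under 6.74, the level of the filter on dim probe sets. The full size of the Bmp2 difference is therefore not known. Bmp4 differed by -0.39 and Bmp5 by -0.05, neither called. Without luminal array 3, however, Bmp4 was called lower (-0.57, limma adjusted p = 0.0347), as it was with array weights (-0.49, limma adjusted p = 0.0458).

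Of the receptor genes, only the type I receptors had calls in both directions. Among the type I receptors, Bmpr1b rose while Tgfbr1 and Acvr1 fell. Bmpr1b, a BMP receptor also known as ALK6, had values of 11.11, 12.68 and 11.26 on the luminal arrays, against 7.21, 7.40, 7.49 and 7.17 on the control basal arrays. It had the largest rise of the 41 genes, 4.37 (SE 0.31, limma adjusted p = 7.08e-07) or 20.6-fold, and luminal array 2 was the brightest. Its relative Bmpr1a averaged 11.23 ± 0.10 (SD, n = 3) in luminal and 10.89 ± 0.19 (SD, n = 4) in control basal cells and was not called (0.34, SE 0.15, limma adjusted p = 0.0980). Tgfbr1, the type I receptor for TGF-beta, had values of 9.28, 9.34 and 9.65 on the luminal arrays, against 11.28, 11.65, 11.32 and 11.41 on the control basal arrays. It was 3.97-fold lower in luminal cells (difference -1.99, SE 0.13, limma adjusted p = 5.20e-07). Acvr1, a type I receptor used by BMPs, was lower by -0.98 (SE 0.14, limma adjusted p = 2.02e-04), and Acvr1b, the type I receptor for activin, differed by -0.03 and was not called.

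Among the type II receptors, Acvr2a and Bmpr2 fell. Acvr2a, a type II receptor for activins and some BMPs, had values of 8.37, 8.51 and 8.65 on the luminal arrays, against 9.82, 10.25, 9.90 and 10.004 on the control basal arrays, with no overlap. Its difference was -1.48 (SE 0.13, limma adjusted p = 4.32e-06), and that of Bmpr2, the BMP type II receptor, was -0.69 (SE 0.14, limma adjusted p = 0.00224). Acvr2b, a relative of Acvr2a, differed by 0.17 and was not called. Tgfbr2, the type II receptor for TGF-beta, had values of 11.67, 10.82 and 11.54 on the luminal arrays, against 10.91, 10.81, 10.85 and 10.94 on the control basal arrays. Luminal array 2 lay inside the basal range, and the difference of 0.47 (SE 0.18, limma adjusted p = 0.0566) was not called; without luminal array 2 it was 0.73 (limma adjusted p = 0.00122). Tgfbr3, the co-receptor betaglycan that presents TGF-beta2 to its receptors, had values of 8.23, 7.70 and 9.29 on the luminal arrays, against 12.53, 12.63, 12.62 and 12.09 on the control basal arrays. It was 16.7-fold lower in luminal cells, by -4.06 (SE 0.30, limma adjusted p = 1.06e-06), and by -4.51 without luminal array 3.

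Of the 8 SMAD genes, 3 fell and 5 were not called. The inhibitory SMADs, which are feedback targets of the pathway, were both lower. Smad6 had values of 6.93, 7.20 and 7.28 on the luminal arrays, against 8.84, 9.82, 9.12 and 9.40 on the control basal arrays. Smad7 had values of 10.73, 9.95 and 10.58 on the luminal arrays, against 11.46, 12.15, 11.58 and 11.92 on the control basal arrays. Neither gene overlapped between the groups, and the differences were -2.16 (SE 0.21, limma adjusted p = 8.75e-06) for Smad6 and -1.36 (SE 0.23, limma adjusted p = 5.09e-04) for Smad7. Smad1, a signal carrier of the BMP branch, had values of 9.62, 9.39 and 10.32 on the luminal arrays, against 10.80, 10.79, 11.03 and 10.91 on the control basal arrays, and was lower by -1.11 (SE 0.19, limma adjusted p = 6.46e-04). The other BMP-branch SMADs differed by 0.08 (Smad5) and -0.06 (Smad9), and the TGF-beta and activin branch by 0.33 (Smad2) and 0.04 (Smad3). The shared partner Smad4 differed by -0.17, with a 95% interval from -0.41 to 0.06. None of these 5 differed by more than 0.64 within its interval. The interval of Smad2, from 0.03 to 0.64, lay above 0, though its limma adjusted p was 0.0731. Smad2 was called higher without luminal array 1 (0.44, limma adjusted p = 0.0418) and with the replicate block (0.39, limma adjusted p = 0.0443).

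The Id genes encode inhibitors of basic helix-loop-helix factors and are known targets of BMP signals. Id1 had values of 7.84, 6.90 and 7.53 on the luminal arrays, against 9.27, 9.25, 8.96 and 9.39 on the control basal arrays. Id3 had values of 8.90, 9.06 and 8.89 on the luminal arrays, against 9.47, 10.33, 9.91 and 10.14 on the control basal arrays. Both were lower on every luminal array than on any control basal array, Id1 by -1.79 (SE 0.28, limma adjusted p = 2.98e-04) and Id3 by -1.01 (SE 0.20, limma adjusted p = 0.00170). Id2 had values of 11.63, 10.59 and 11.67 on the luminal arrays, against 11.85, 11.97, 11.74 and 11.62 on the control basal arrays. Only luminal array 2 stood far below the basal range, and the difference of -0.50 (SE 0.26, limma adjusted p = 0.151) was not called.

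Of the 4 latent TGF-beta binding protein genes 2 fell, and of the 4 antagonists 1 fell. Fst encodes follistatin, which binds and blocks activins. It had values of 7.59, 7.02 and 8.30 on the luminal arrays, against 12.69, 12.66, 12.37 and 12.67 on the control basal arrays. This was the largest difference of the 41 genes, -4.96 (SE 0.24, limma adjusted p = 4.72e-08) or 31.1-fold lower. Ltbp2, a fibrillin-associated relative of the latent TGF-beta binding proteins, had values of 8.13, 7.72 and 8.54 on the luminal arrays, against 12.32, 12.28, 11.94 and 12.21 on the control basal arrays. Ltbp4, which carries latent TGF-beta1 in elastic matrix, had values of 7.93, 6.88 and 8.24 on the luminal arrays, against 11.08, 11.38, 11.47 and 11.33 on the control basal arrays. Both were lower on all luminal arrays, Ltbp2 by -4.05 (SE 0.18, limma adjusted p = 2.55e-08) or 16.6-fold and Ltbp4 by -3.63 (SE 0.26, limma adjusted p = 8.70e-07) or 12.4-fold. Ltbp3 differed by -0.16 and was not called. Ltbp1 had values of 9.85, 9.40 and 11.02 on the luminal arrays, against 8.95, 9.16, 9.82 and 9.37 on the control basal arrays, and its difference of 0.77 (SE 0.34, limma adjusted p = 0.0906) was not called. It was 0.30 (limma adjusted p = 0.375) without luminal array 3, 1.11 (limma adjusted p = 0.0212) without luminal array 2 and 0.78 (limma adjusted p = 0.0181) with the replicate block. The BMP antagonists Nog, Grem1 and Chrd differed by -0.12, 0.10 and -0.06, none called. Grem1, Chrd and Bmp5 lay below the array's median intensity on all 10 arrays, where a real difference would be hard to see.

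**Figure D2:**
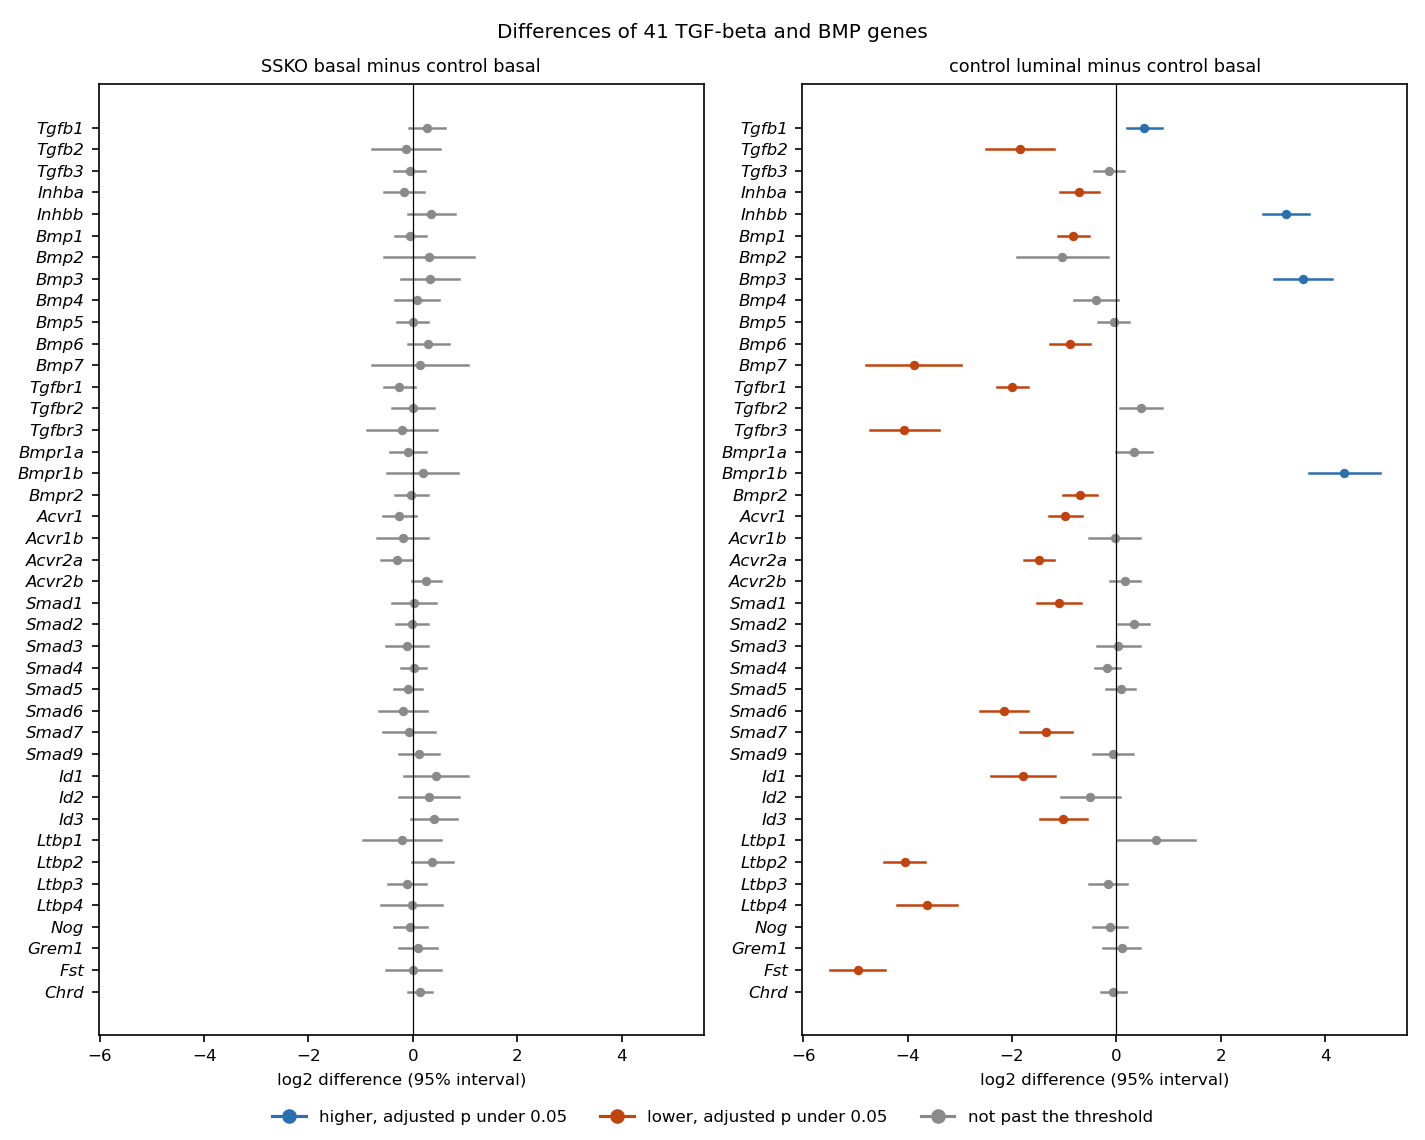
Log2 differences of the 41 genes with their 95% limma intervals, for SSKO basal minus control basal on the left and control luminal minus control basal on the right. Blue and orange mark genes called higher and lower at an adjusted p under 0.05, and grey those not called; all 41 are grey on the left, with 4 blue and 18 orange on the right.

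Markers of other cells moved with this comparison. Fibroblast markers were called lower in luminal cells for 9 of the 10 tested, and their summed intensity ran from 1856 to 7182 on the luminal arrays and from 14702 to 28962 on the control basal arrays. Of the 12 fibroblast markers measured, 10 lay below the array's median on every luminal array and 2 on every control basal array. Pericyte markers were called lower for 6 of 8, with sums of 3014 to 3706 on the luminal and 4829 to 6845 on the control basal arrays. The 1 called higher was Notch3, at 10.76 to 11.23 on the luminal and 8.28 to 8.71 on the control basal arrays. Endothelial markers were called lower for 1 of 12, with sums of 4013 to 5735 on the luminal and 4583 to 12714 on the control basal arrays. The part of these other cells in the luminal differences was not tested. Control basal array 3 had the highest fibroblast sum, 28962, against 14702 to 15555 on the other control basal arrays, and of the genes lower in luminal cells, Fst, Ltbp2, Tgfb2, Bmp6 and Id1 had their lowest control basal value on that array and Ltbp4, Smad1 and Acvr1 their highest. Of the 18 genes lower in luminal cells, luminal array 3 was the brightest luminal array for 12, beside 60.2% of all genes called lower. The 22 calls all held without it.

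**Figure D3:**
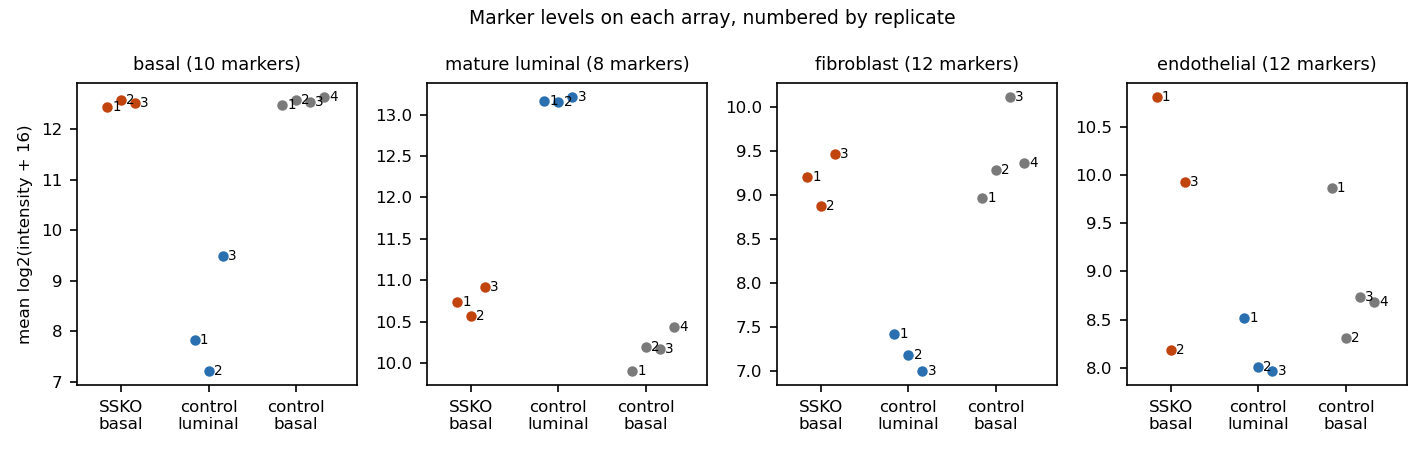
Mean log2(intensity + 16) of 10 basal, 8 mature luminal, 12 fibroblast and 12 endothelial markers, with 1 point per array numbered by replicate, for SSKO basal, control luminal and control basal cells. Luminal array 3 lies above the other luminal arrays for basal markers, and SSKO arrays 1 and 3 and control basal array 1 lie above the other basal arrays for endothelial markers.

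Setting SSKO against control basal cells asks whether the pathway differs in the basal compartment when Pygo2 is lost. No member of the pathway was called. Limma called 0 of the 41 genes, 1 of the 41 had an unadjusted p under 0.05, and 0.0379% of all genes tested were called, 0.0316% higher and 0.00632% lower, with 3.03% at an unadjusted p under 0.05. Over all genes 5 were higher and 1 lower, or 3 and 0 after quantile normalization. Differences ranged from -0.31 for Acvr2a to 0.45 for Id1, with a median of -0.01, beside 0.01 over all genes. The 95% interval lay within 1 log2 unit of 0, that is within a 2-fold change, for 38 of the 41 genes, and for 94.6% of all genes. Bmp2, Bmp7 and Id1 were the exceptions, and their intervals ran from -0.56 to 1.18, from -0.78 to 1.05 and from -0.16 to 1.06. The fit shares 1 estimate of the spread over all groups, so luminal arrays also set the width of these intervals. For Bmp7 the SD was 1.14 in luminal, 0.29 in SSKO basal and 0.30 in control basal cells. For Bmpr1b it was 0.87, 0.11 and 0.15 in the same groups. Their intervals and SEs here are therefore wider than the basal arrays alone would give.

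The genes with the widest luminal differences had values in SSKO basal cells close to those of control basal cells. Fst had values of 12.66, 12.66 and 12.49 on the SSKO arrays, and its difference from control basal cells was 0.01, with a 95% interval from -0.52 to 0.54. Bmp7 had values of 11.95, 11.99 and 11.46 on the SSKO arrays, inside the control range of 11.49 to 12.11 on 2 of 3 arrays. Tgfbr3 had values of 12.32, 12.32 and 12.14, inside the control range of 12.09 to 12.63. On the luminal side, Bmpr1b had values of 7.55, 7.58 and 7.39 on the SSKO arrays, against 7.17 to 7.49 on the control basal arrays, a difference of 0.19 (SE 0.31). Bmp3 had values of 8.02, 7.83 and 7.97 on the SSKO arrays, all above the control basal arrays at 7.44 to 7.73, a difference of 0.33 (SE 0.25, limma adjusted p = 0.9998) that was not called.

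Groups did not overlap for 5 of the 41 genes (12.2%), against 4.46% of all genes tested. The SSKO arrays lay higher for Bmp3, Ltbp2 and Chrd, against 2.45% of all genes, and lower for Tgfbr1 and Acvr2a, against 2.02%. Ltbp2 had values of 12.60, 12.59 and 12.49 on the SSKO arrays, against 12.32, 12.28, 11.94 and 12.21 on the control basal arrays, a difference of 0.37 (SE 0.18). Acvr2a had values of 9.68, 9.77 and 9.60 on the SSKO arrays, against 9.82, 10.25, 9.90 and 10.004 on the control basal arrays, a difference of -0.31 (SE 0.13). It was the gene with an unadjusted p under 0.05. Tgfbr1 had values of 11.18, 11.21 and 11.05 on the SSKO arrays, against 11.28, 11.65, 11.32 and 11.41 on the control basal arrays, a difference of -0.26 (SE 0.13). The gaps between the groups were small in each case, and limma's adjusted p was 0.9998 for all of them, so none passed.

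Id1 and Id3 had the largest positive differences of the 41 genes, and no Id gene was called. Id1 had values of 10.35, 9.34 and 9.29 on the SSKO arrays, against 9.27, 9.25, 8.96 and 9.39 on the control basal arrays. SSKO array 1 alone stood above the control range, and the difference of 0.45 (SE 0.28) was 0.10 without that array. Id3 had values of 10.67, 10.35 and 10.08 on the SSKO arrays, against 9.47, 10.33, 9.91 and 10.14 on the control basal arrays, an overlapping difference of 0.40 (SE 0.20). Id2 had values of 12.30, 12.34 and 11.68 on the SSKO arrays, against 11.85, 11.97, 11.74 and 11.62 on the control basal arrays, a difference of 0.31 (SE 0.26) with SSKO array 3 inside the control range.

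Several ligands varied between the SSKO arrays more than between the control basal arrays. Bmp2 had values of 7.88, 6.53 and 8.71 on the SSKO arrays, against 7.52, 7.11, 7.17 and 7.80 on the control basal arrays. Bmp6 had values of 9.02, 8.34 and 8.92 on the SSKO arrays, against 8.60, 8.48, 8.34 and 8.44 on the control basal arrays. Inhbb had values of 8.28, 7.46 and 8.25 on the SSKO arrays, against 7.64, 7.74, 7.58 and 7.61 on the control basal arrays. In each of the 3 genes SSKO arrays 1 and 3 lay above all control arrays, while SSKO array 2 lay below all of them for Bmp2 and Inhbb and within their range for Bmp6. The mean level of the 12 endothelial markers was 10.81, 8.19 and 9.93 on SSKO arrays 1 to 3, against 9.86, 8.31, 8.74 and 8.68 on control basal arrays 1 to 4, so SSKO arrays 1 and 3 were also the brightest for these markers. The same arrays were highest for pericyte markers, with mean levels of 9.04, 8.57 and 8.97 on SSKO arrays 1 to 3 and 8.43 to 8.64 on the control basal arrays, and for adipocyte markers, with 8.22, 7.73 and 8.25 on the SSKO arrays and 7.58 to 7.89 on the control basal arrays. Endothelial, pericyte and adipocyte markers were thus highest on the same SSKO arrays, so their parts cannot be told apart. The part of none of these cells in the values of the ligands was tested. With the endothelial level as a covariate, the difference was -0.05 in place of 0.31 for Bmp2, 0.12 in place of 0.30 for Bmp6, 0.19 in place of 0.35 for Inhbb and 0.24 in place of 0.45 for Id1, while Id3 stood at 0.47 and Id2 at 0.33. Endothelial markers were above control basal cells in 12 of 12 cases and called in 0 of 12, with sums of 4336 to 24468 on the SSKO arrays and 4583 to 12714 on the control basal arrays, although CD31 was in the sort. Mature luminal markers also moved, with sums of 22406 to 25371 on the SSKO arrays and 15231 to 20091 on the control basal arrays and 1 of 8 called higher; their part in the values of the luminal genes Bmp3, Inhbb and Bmpr1b was not tested. Without SSKO array 2 the differences were 0.90 for Bmp2, 0.51 for Bmp6 and 0.62 for Inhbb, with limma adjusted p of 0.596, 0.732 and 0.433.

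**Figure D4:**
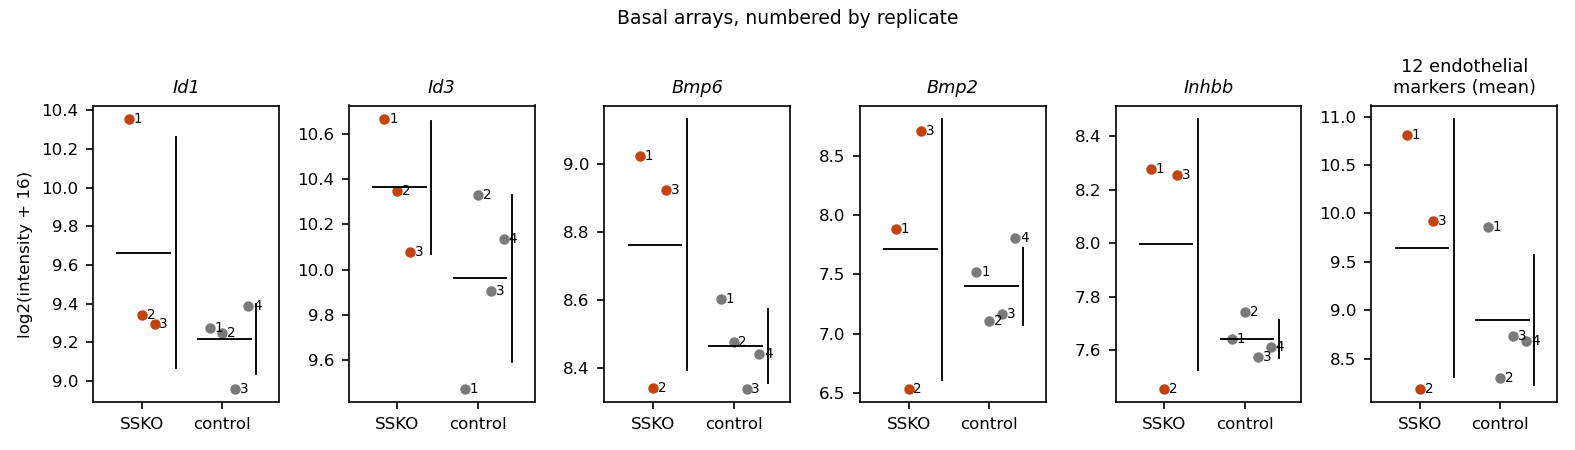
Log2(intensity + 16) of Id1, Id3, Bmp6, Bmp2 and Inhbb and the mean of 12 endothelial markers on the SSKO (n = 3) and control (n = 4) basal arrays, numbered by replicate. Horizontal lines are means and vertical lines 1 SD on either side; SSKO arrays 1 and 3 are highest for Bmp6, Bmp2 and Inhbb, as they are for the endothelial markers, where control array 1 comes next.

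SSKO basal cells were also set against control luminal cells, a comparison that shares the SSKO arrays with one of the comparisons above and the luminal arrays with the other. Of the 41 genes, 56.1% were called, where 42.3% of all genes were. In SSKO basal cells 20 were higher and 3 lower, where 19.0% of all genes were called higher and 23.3% lower; after centring of the arrays on their medians the split was 18 and 7. The largest differences were 4.97 (SE 0.26) for Fst, 4.43 (SE 0.19) for Ltbp2, 4.02 (SE 0.44) for Bmp7 and 3.86 (SE 0.32) for Tgfbr3 on the higher side, and -4.18 (SE 0.33) for Bmpr1b, -3.25 (SE 0.27) for Bmp3 and -2.90 (SE 0.22) for Inhbb on the lower side. Without luminal array 3 these were 5.30, 4.63, 4.67 and 4.30 on the higher side and -4.39, -3.61 and -2.76 on the lower side, and Bmp4 was also called higher (0.65, limma adjusted p = 0.0267). With all arrays their limma adjusted p ran from 3.75e-08 for Ltbp2 to 2.88e-05 for Bmp7. Tgfb1, called higher in luminal than in control basal cells, averaged 10.40 ± 0.26 in SSKO basal and 10.67 ± 0.05 in luminal cells (SD, n = 3 each) and was not called here (difference -0.27, SE 0.17, limma adjusted p = 0.231).

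Of the genes called in this comparison, 3 lost their call with some choices of arrays or of fit. Bmp2 was higher in SSKO basal cells by 1.35 (SE 0.42, limma adjusted p = 0.0237), but the call ended without SSKO array 1 (1.26, 0.0694), SSKO array 3 (0.85, 0.0858), luminal array 1 (1.39, 0.0515) or luminal array 2 (1.28, 0.0676) and with the endothelial covariate (0.63, 0.285). Id2 was higher by 0.81 (SE 0.28, limma adjusted p = 0.0351), and its call ended without SSKO array 1 (0.71, 0.108), SSKO array 2 (0.70, 0.115) or luminal array 2 (0.46, 0.117). It also ended after centring of the arrays (0.73, 0.0598), with the replicate block (0.81, 0.0536), when luminal and SSKO arrays were fitted by themselves (0.81, 0.0694) and with the endothelial covariate (0.84, 0.105). Inhba was higher by 0.54 (SE 0.18, limma adjusted p = 0.0328), and its call ended without SSKO array 2 (0.49, 0.100) or 3 (0.43, 0.129), without luminal array 1 (0.52, 0.0892), 2 (0.58, 0.0570) or 3 (0.53, 0.0731), after quantile normalization (0.49, 0.0544) and after centring (0.46, 0.0647). The values in brackets are the log2 difference and limma's adjusted p. The other 20 calls held when any 1 of the 6 arrays compared was left out. Some genes not called were called in a part of the 18 alternative fits. Bmpr1a, at a limma adjusted p of 0.0550 with all arrays, was called lower in 7 of them, and Ltbp1, at 0.0503, in 6. Tgfbr2 and Smad2 were called lower and Bmp4 higher in 2 each.

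A second list of 71 further pathway genes gives the wider setting, of which 65 were measured by a probe set with 1 symbol, 57 passed the filter on dim probe sets and 6 were not analysed here. In SSKO against control basal cells limma called 0 of the 57, and 0 had an unadjusted p under 0.05. The smallest p belonged to the co-receptor Eng (0.58, SE 0.28), which is also an endothelial marker, Chrdl1 (0.25, SE 0.13) and Gdf10 (0.57, SE 0.29). In luminal against control basal cells 25 were lower (43.9%, beside 19.7% of all genes) and 3 higher (5.26%, beside 24.6% of all genes). Without luminal array 3 24 were lower and 3 higher, with 26 of the 28 called in both fits. The median was -0.33, beside 0.07 over all genes.

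Id4, a relative of Id1, had values of 5.88, 5.38 and 5.73 on the luminal arrays, against a mean of 10.93 ± 0.33 (SD, n = 4) on the control basal arrays. Its fall of -5.26 (SE 0.19, limma adjusted p = 8.85e-09) was the largest on that list, and since its luminal mean of 5.66 lay under 6.74 its full size is not known. The follistatin relatives Fstl1, a secreted glycoprotein, and Fstl3, an activin antagonist, fell by -4.99 (SE 0.20) and -3.08 (SE 0.19). The secreted protease Htra1 fell by -3.86 (SE 0.38), and Ccn2, a matricellular protein induced by TGF-beta, by -3.53 (SE 0.35). On luminal array 3 Ccn2 stood at 10.56, against 8.85 and 8.84 on luminal arrays 1 and 2. Msx2, a homeobox gene that responds to BMP, was higher by 3.85 (SE 0.30, limma adjusted p = 1.43e-06), with values of 10.64, 10.44 and 11.19 on the luminal arrays, against a mean of 6.91 ± 0.55 (SD, n = 4) on the control basal arrays. Inha, the inhibin alpha subunit, was higher by 1.06 (SE 0.23) and the ligand gene Bmp8b by 0.64 (SE 0.18). In SSKO basal cells Id4 averaged 10.80 ± 0.19 and Msx2 7.35 ± 0.37 (SD, n = 3 each), and neither was called against control basal cells.

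**Figure D5:**
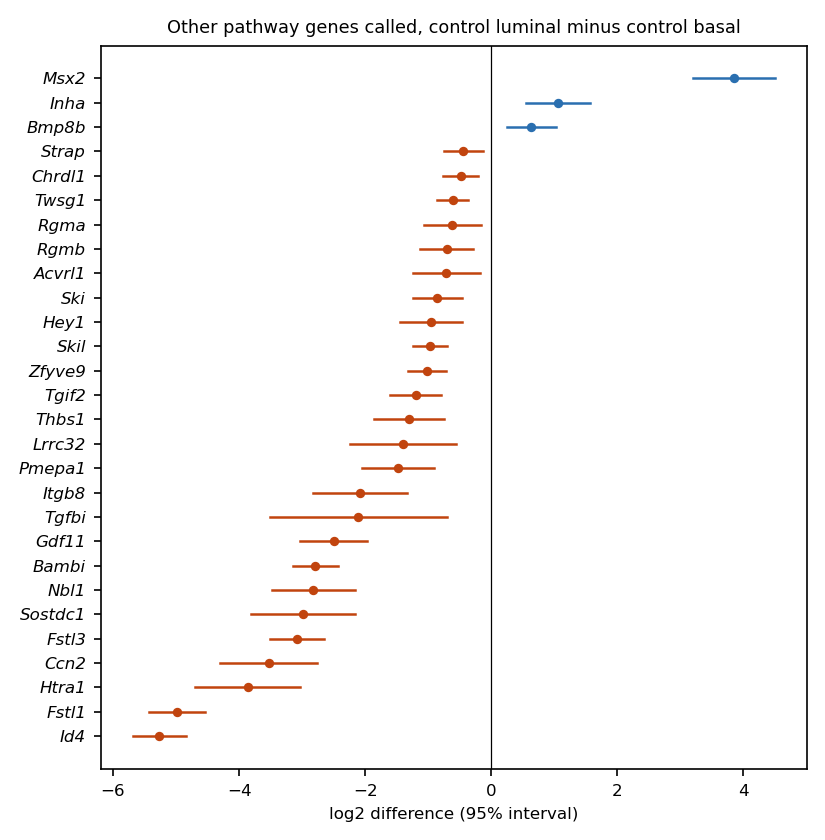
Log2 difference between control luminal and control basal cells, with 95% limma intervals, for the 28 further pathway genes called at an adjusted p under 0.05. Msx2, Inha and Bmp8b lie to the right of 0, and the other 25 genes lie to the left, with Id4 and Fstl1 farthest.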

How the data were processed

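Total RNA of 10 sorted samples was hybridised to 10 Affymetrix arrays. The deposited table holds 28815 probe set intensity values per array on a linear scale, made with Affymetrix Expression Console 1.1 and PLIER 2.0, per the submitters' processing notes, which give neither tool's role; no source states whether arrays were normalized to each other. Array medians lay between 205 and 228. Probe sets were named by the platform annotation: 21780 had 1 symbol, 1605 several and 5430 none.

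Intensities were taken as log2(intensity + 16). Probe sets in the dimmest 25% by mean (under 6.74) were dropped, and the brightest probe set stood for a gene. Group means were fitted with limma 3.58.1 (lmFit, eBayes) in R 4.3.3 to all 10 arrays, with 7 residual degrees of freedom, two-sided tests and Benjamini-Hochberg adjustment over 15815 genes. The steps were tested on simulated data with known changes, a check of the code that had to recover large changes only. It does not show that small differences would be found. Python 3.11.15 with matplotlib 3.10.9 drew the figures. The 41 genes, the further list of 71 genes and the marker lists were chosen with earlier results of these data known. All 41 are accounted for. From the further list, up to 5 called genes of largest rise and 5 of largest fall in luminal cells are named, and the 3 of smallest p in SSKO cells. Alternatives covered the pseudocount, normalization, filter, probe set choice, variance model, array weights, arrays fitted, replicate number, an endothelial covariate and each array left out.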

Additional observations from a re-analysis of the deposited data

Results flagged for a closer look

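Among 42 genes checked (the 41 pathway genes and Pygo2), 3 had a control basal array whose gap to its nearest neighbour took up nearly the whole range of the 4 control basal arrays; chance alone marks about 1 group in 20. Bmp7 was 12.11 on control basal array 1, against 11.49 to 11.54 on the others. Bmpr2 was 12.19 on control basal array 1, against 12.53 to 12.56. Fst was 12.37 on control basal array 3, against 12.66 to 12.69. The distances for Bmp7 and Fst are small beside their differences from luminal cells, and Bmpr2 kept its call in luminal cells without control basal array 1.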

How the results depend on the processing

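Over the 41 genes, each called direction held in every alternative fit, and no called difference changed sign. In luminal against control basal cells all 22 calls held throughout; with the replicate block 8 genes were called higher in place of 4, adding Tgfbr2, Bmpr1a, Smad2 and Ltbp1. In SSKO basal against luminal cells the number called lower was 3. It was 5 with a pseudocount of 64, with the filter at 50% of probe sets, with the variance trend and with the replicate block. It was 7 after centring of the arrays, and 3 to 5 when 1 array was left out. With array weights Bmpr1a was called lower in addition to the 3 (-0.39, limma adjusted p = 0.0466). In SSKO against control basal cells 0 of the 41 were called in any of the 19 alternatives, of which the 50% filter tested 35 of them. Over all genes that comparison called 5 higher and 1 lower; quantile normalization gave 3 higher and 0 lower, and the 50% filter, the fit to the compared groups alone and the replicate block each gave 0 lower. The gene called lower was Pygo2, which was not tested under the 50% filter; its adjusted p was 0.0735 after quantile normalization, 0.118 in the fit to the compared groups, 0.177 with the replicate block and 0.0835 with the endothelial covariate. Leaving out SSKO array 2 (0.0614) or 3 (0.363) ended the Pygo2 call too, and so did leaving out control basal array 1 (0.0783), 2 (0.146) or 4 (0.115). Leaving out 1 array gave 1 (without SSKO array 3) to 27 (without SSKO array 2) higher, 2 higher without control basal array 2, and 0 to 2 lower. Whether replicate numbers pair the samples was not settled: deviations of same-numbered SSKO and control basal arrays correlated at 0.63, 0.46 and 0.05, each SSKO array doing so best with its own number, those of luminal and control basal arrays at -0.08, -0.08 and -0.06, and those of SSKO and luminal arrays at 0.09, 0.03 and 0.18. The cause of the other changes was not tested. No detection call was used, so a difference in dim genes such as Grem1 and Chrd would be hard to see.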
